A study of Mus musculus with 6 samples.

Results

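The genes described here are 46 mouse genes of DNA replication and nucleotide synthesis, read from the 93 probes of an Illumina bead array that carry their symbols, among 19057 genes named on the array. All 46 had at least 1 probe, and 40 were measured, meaning that a probe gave a detection p-value under 0.01 on at least 3 of the 6 arrays. The RNA came from primary macrophages grown from the bone marrow of male c57Bl6/J mice, wild type and 10 weeks old. Either peptide, control or RI-BPI, was given at 5 µM for 12 h in medium that the labels call MSF, with 3 arrays per peptide. RI-BPI is a retro-inverso peptide that blocks the contact of Bcl6, a transcriptional repressor, with its corepressors SMRT and NCoR. Per the labels these arrays are technical replicates, and the number of cultures or mice behind them is not given. All p-values below therefore measure the spread between arrays, which may be technical.

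Replication starts from origins that the origin recognition complex (Orc1 to Orc6) marks. In G1 the loaders Cdc6 and Cdt1 place the MCM helicase (Mcm2 to Mcm7) on these sites, a step called licensing that geminin (Gmnn) blocks later in the cycle by holding Cdt1. In S phase the kinase Cdc7, Mcm10 and the GINS complex turn the loaded helicase on. Primase and DNA polymerase alpha then lay primers, replication factor C loads the PCNA clamp, polymerases delta and epsilon extend the strands, and Fen1 and ligase Lig1 join the lagging-strand pieces. Ribonucleotide reductase (Rrm1, Rrm2), thymidylate synthase (Tyms), thymidine kinase (Tk1) and dUTPase (Dut) supply the deoxynucleotides. Many of these genes are driven by E2F factors and are low in cells that have left the cycle, and macrophages grown from marrow divide as long as they receive their growth factor.

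Of 45281 probes, a control array detected 13866 to 14357 and an RI-BPI array 12931 to 13843. Of the 93 probes of the replication genes, 53 to 55 were detected per control array and 44 to 49 per RI-BPI array. Arrays of 1 peptide correlated with each other at r of 0.992 to 0.996 across 8205 measured genes, and arrays of different peptides at 0.945 to 0.948. All 9 macrophage markers with a probe were measured. By the test described below 5 of them fell and 0 rose, against 30.6% and 30.7% of all measured genes. The log2 changes were -1.73 for Fcgr1, -1.32 for Aif1, -0.86 for Adgre1 and -0.74 for Mertk. Itgam, detected on no RI-BPI array, was at least 1.62-fold lower. Csf1r, Lyz2, Cd14 and Spi1 did not pass. The summed normalized intensity, weighted to bright genes such as Lyz2 and Cd14, was 52172 to 57766 on the control arrays and 48828 to 49548 on the RI-BPI arrays. Of 11 markers of neutrophils and their precursors, 2 were measured (S100a8 higher, Cebpe lower). Elane, Mpo, Prtn3, Ctsg, Camp, Ltf, Ngp, S100a9 and Retnlg were detected on no array, and the sum ran from 347 to 408 with control and from 439 to 509 with RI-BPI. For lymphocytes 1 of 8 markers was measured, Cd79b, which was lower and detected on no RI-BPI array. Cd3e, Ms4a1 and Cd8a were detected on no array, and the sums were 39.3 to 46.5 and 31.5 to 37.5. For erythroid, mast and stem cells 1 of 8 was measured, Kit. It was detected on all 3 RI-BPI arrays and on no control array, and was at least 1.80-fold higher. Gata1, Cd34 and Flt3 were detected on no array, and the sums were 26.8 to 32.5 and 52.3 to 68.9. For fibroblasts 0 of 8 were measured, with sums of 32.9 to 37.5 and 30.8 to 34.3. The part of the lower number of detected probes and of these markers in the results below was not tested. In RNA from a whole culture, fewer dividing cells and less of a transcript in each cell cannot be told apart.

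Most replication genes were lower with RI-BPI. By limma's moderated test, with a Benjamini-Hochberg adjusted p under 0.05 as the threshold, 30 of the 40 measured fell, against 30.6% of all 8205 measured genes. Another 2 rose, against 30.7% of all genes, and 8 were not called. In either direction 32 of 40 were called, against 61.3% of all genes. The median log2 change was -0.70, against 0.008 over all measured genes. A gene could be measured through the arrays of a single peptide, so those detected on all 6 arrays are also given. Of 34 such genes, 25 fell and 2 rose, against 29.4% and 31.9% of the 7247 genes detected on all 6 arrays, with a median of -0.71. Decreases of at least 1.5-fold were called for 23 of the 40 (15.2% of all genes) and of at least 2-fold for 11 (5.30%). Both counts use the fitted fold, also for Pole, which was detected on no RI-BPI array. The bound for Pole (1.4999-fold, given below as 1.5-fold) is short of both limits. Increases of at least 1.5-fold were called for 2 (14.8% of all genes) and of at least 2-fold for 0 (5.01%). The values of the 3 RI-BPI arrays lay wholly below those of the 3 control arrays for 30 genes (32.3% of all genes) and wholly above for 2 (32.5%). The size of a change depended on the processing. Without background correction, with an offset of 50 or in the authors' normalized table, 10, 11 and 14 of the 32 called genes had a log2 change over 1.5 times smaller.

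**Figure D1:**
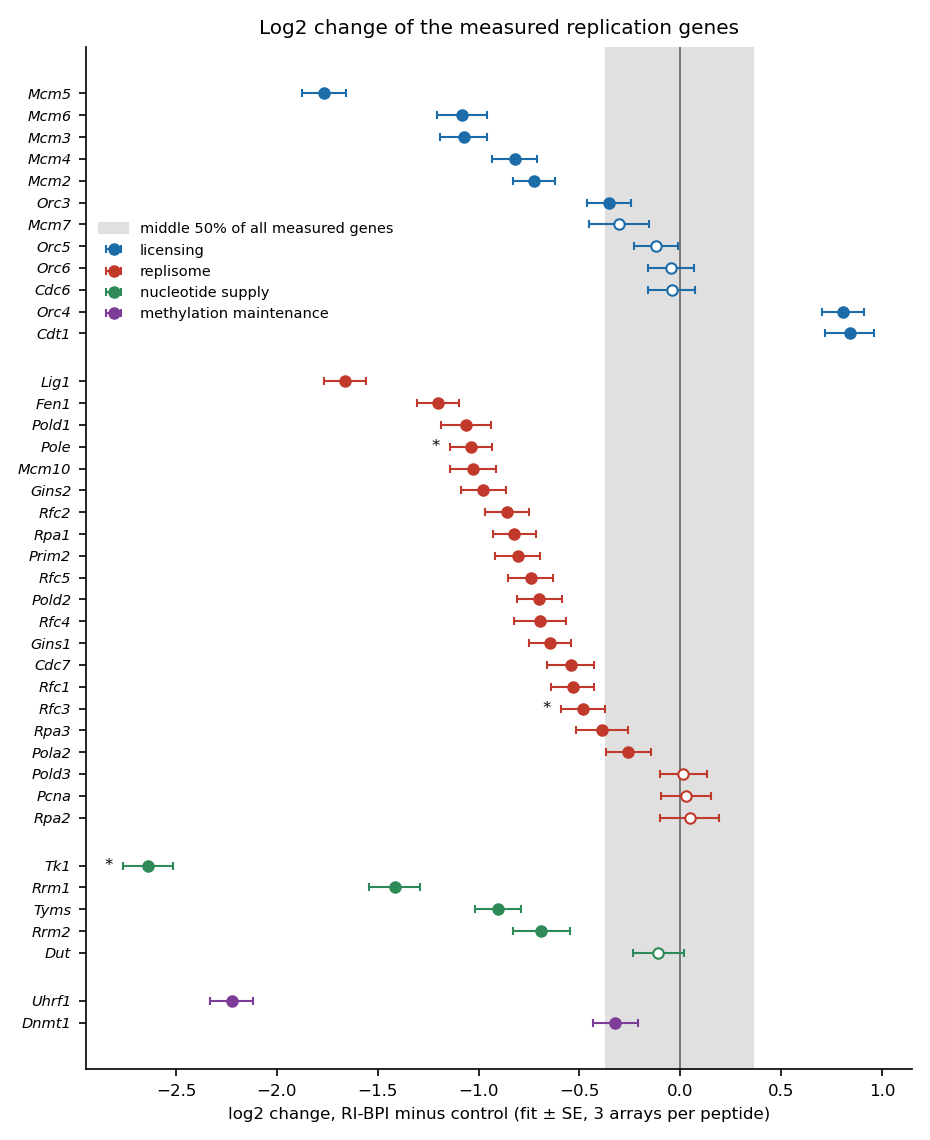
Log2 change (RI-BPI minus control, fit ± SE, 3 arrays per peptide) of the 40 measured genes, grouped by role. Filled points passed the test and open points did not, and the grey band holds the middle 50% of all 8205 measured genes. An asterisk marks genes detected on no RI-BPI array, whose change is bounded only from 1 side or, for Rfc3, not bounded. As filled points 30 genes lie to the left, and Orc4 and Cdt1 are the filled points to the right.

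Counts differed between the roles. Over all measured genes 30.6% fell and 30.7% rose, and these shares stand beside each count by role or complex below. Among 15 licensing genes 12 were measured, with 6 lower, 2 higher, 4 not called and a median log2 change of -0.33. Among 24 replisome genes 21 were measured, with 18 lower, 0 higher, 3 not called and a median of -0.70. All 5 genes of nucleotide supply were measured, and 4 fell with a median of -0.90. The 2 genes that maintain DNA methylation behind the fork, Uhrf1 and Dnmt1, both fell. These medians describe small groups, and no test was made between the groups.

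The sequences around the transcription start are shown for some of the genes with the largest decreases of licensing, replisome and nucleotide supply, and for Cdt1, which rose. Fen1, Rrm1 and Orc4, of which Orc4 rose, met the same rule but are not printed. Their windows held no E2F word, and neither did that of Tk1, which is printed. The printed windows thus overstate how often the chosen genes held such a word. Each runs 5′ to 3′ on the strand of the gene from 250 bases before the start to 50 bases after it (RefSeq, build GRCm38.p6), with E2F words in capitals. The words searched were TTTCCCGC, TTTCGCGC, TTTGCCGC and TTTGGCGC on both strands, which can overlap each other. The windows are those of Mcm5 (chr8:75109259-75109558, plus strand), Mcm6 (chr1:128359656-128359955, minus strand), Cdt1 (chr8:122567765-122568064, plus strand), the second of 3 annotated starts of Lig1 (chr7:13278576-13278875, plus strand) and Tk1 (chr11:117825965-117826264, minus strand).
Mcm5: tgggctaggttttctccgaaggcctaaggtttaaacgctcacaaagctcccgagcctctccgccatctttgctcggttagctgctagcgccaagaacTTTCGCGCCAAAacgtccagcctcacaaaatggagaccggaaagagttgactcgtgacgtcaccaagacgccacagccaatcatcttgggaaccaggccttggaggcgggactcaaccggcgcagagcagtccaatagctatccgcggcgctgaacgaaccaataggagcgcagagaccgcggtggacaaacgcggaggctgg
Mcm6: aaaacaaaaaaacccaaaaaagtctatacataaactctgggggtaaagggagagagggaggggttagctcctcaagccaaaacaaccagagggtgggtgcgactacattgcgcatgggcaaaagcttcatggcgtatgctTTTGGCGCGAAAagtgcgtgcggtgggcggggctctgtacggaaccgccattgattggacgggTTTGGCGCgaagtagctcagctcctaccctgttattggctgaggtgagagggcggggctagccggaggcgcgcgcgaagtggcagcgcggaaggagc
Cdt1: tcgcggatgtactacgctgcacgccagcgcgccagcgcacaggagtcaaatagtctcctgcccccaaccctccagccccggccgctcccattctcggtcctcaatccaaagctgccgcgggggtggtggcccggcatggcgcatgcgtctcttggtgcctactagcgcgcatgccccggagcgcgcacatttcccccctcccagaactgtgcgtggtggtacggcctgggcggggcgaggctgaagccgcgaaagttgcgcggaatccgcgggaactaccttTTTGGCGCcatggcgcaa
Lig1: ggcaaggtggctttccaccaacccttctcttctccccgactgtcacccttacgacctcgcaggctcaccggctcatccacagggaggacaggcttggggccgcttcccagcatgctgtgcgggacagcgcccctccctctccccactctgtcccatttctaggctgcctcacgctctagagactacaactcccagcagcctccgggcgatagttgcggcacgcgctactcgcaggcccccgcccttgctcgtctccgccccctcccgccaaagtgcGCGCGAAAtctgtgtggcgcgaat
Tk1: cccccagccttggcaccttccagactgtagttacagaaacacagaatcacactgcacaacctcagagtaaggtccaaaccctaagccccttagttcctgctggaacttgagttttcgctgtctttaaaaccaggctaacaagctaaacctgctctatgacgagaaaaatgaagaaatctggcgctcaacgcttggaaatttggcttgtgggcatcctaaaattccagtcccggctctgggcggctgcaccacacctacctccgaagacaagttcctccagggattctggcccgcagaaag

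In Mcm5 and Mcm6 the capitals hold 2 overlapping words, 1 on each strand, upstream of the start, and Mcm6 has a further word closer to it. In Cdt1 and Lig1 a single word lies just downstream of the start, and the Tk1 window holds none of these words. The windows of the other 2 starts of Lig1 hold none either. RefSeq windows were found for 39 of the 46 genes, and 16 of the 39 (41.0%) held an E2F word, against 2.6% of 27025 genes with a window and 4.82% of the measured ones. By role the counts were 8 of 13 for licensing, 6 of 19 for the replisome, 0 of 5 for nucleotide supply, and both genes of methylation maintenance. By response they were 9 of 24 genes that fell (37.5%), 3 of 8 not called (37.5%) and 1 of 2 that rose. CCAAT, searched on both strands, was in 23 of 39 (59.0%), against 41.1% of all genes. TTCNNNGAA, the spaced core that STAT and Bcl6 sites share and that reads alike on both strands, was in 4 of 39 (10.3%), against 9.55% of all genes. A match describes letters only, and no binding was measured.

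Of the 6 subunits of the MCM helicase 5 fell, and the median over the 6 was -0.95. Mcm5, a subunit at the gate through which the ring opens onto DNA, had intensities of 419.8, 470.1 and 447 on the control arrays and 154, 152 and 127 on the RI-BPI arrays. The RI-BPI arrays were far below the control arrays with no overlap, and Mcm5 fell by 1.77 ± 0.11 on the log2 scale (3.41-fold lower, adjusted p = 6.95e-11), rank 59 from the bottom of 8205 genes. Mcm6 read 529, 596 and 486 on the control arrays and 275, 222 and 285 on the RI-BPI arrays, again with separate groups. It fell by 1.08 ± 0.12 (adjusted p = 3.54e-07), and its other detected probes changed by -1.06 ± 0.12 and -0.71 ± 0.12. Mcm3 read 119, 114 and 109 on the control arrays and 71.2, 67.6 and 59.99 on the RI-BPI arrays, and fell by 1.07 ± 0.12. The groups of Mcm3 were separate, and its RI-BPI arrays stood not far above undetected probes, whose median per array was 40.6 to 42.4. The change of Mcm3 was -0.60 in the authors' normalized table. Mcm4 fell by 0.82 ± 0.11 and Mcm2 fell by 0.73 ± 0.11, each with separate groups. Mcm7, the remaining subunit of the hexamer, overlapped between the peptides at 82.3, 101 and 77.6 on the control arrays and 71.3, 81.8 and 62.6 on the RI-BPI arrays. Its change of -0.30 ± 0.15 did not pass (adjusted p = 0.0847), but did without RI-BPI replicate 2, at -0.48 (adjusted p = 0.00818), and with median centring, at -0.45 (adjusted p = 0.0228).

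Of the loaders, 1 rose and 1 was not called. Cdt1, which brings the helicase to origins, had intensities of 700.3, 571 and 599 on the control arrays and 1265, 916 and 1077 on the RI-BPI arrays. All 3 RI-BPI arrays were above all control arrays, and Cdt1 rose by 0.84 ± 0.12 (1.79-fold higher, adjusted p = 8.03e-06). Over the 15 alternative ways of processing, its change stayed between 0.75 and 0.96. Cdc6, the partner of Cdt1 in loading, was close to background at 65.5, 69.3 and 62.8 on the control arrays and 58.7, 62 and 65.9 on the RI-BPI arrays, and its groups overlapped, with a change of -0.04 ± 0.12 (adjusted p = 0.768). The probe of geminin, the inhibitor of Cdt1, was detected on no array, at intensities between 40.9 and 47.5.

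Of the origin recognition complex 4 of 6 subunits were measured, of which 1 rose and 1 fell. Each is 25% of those measured, near the 30.7% and 30.6% of all measured genes. Orc4, an ATPase-fold subunit of the core ring, rose from a low level, at 71.2, 70.3 and 66 on the control arrays and 96.1, 90.05 and 92.6 on the RI-BPI arrays. The groups were separate, and Orc4 rose by 0.81 ± 0.10 (adjusted p = 1.88e-06). The array has 3 further Orc4 probes, none detected on any array, so the increase rests on 1 dim probe, and in the authors' normalized table it was 0.44. Orc3 read 96.5, 109 and 102 on the control arrays and 82.6, 83.7 and 76.3 on the RI-BPI arrays and fell by 0.35 ± 0.11 (adjusted p = 0.00883). Orc5 (-0.12 ± 0.11) and Orc6 (-0.05 ± 0.11) overlapped between the peptides and were not called. Both probes of Orc1, which is degraded in S phase in human cells, were detected on no array, and each of the 2 probes of Orc2 was detected on 1 RI-BPI array alone.

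**Figure D2:**
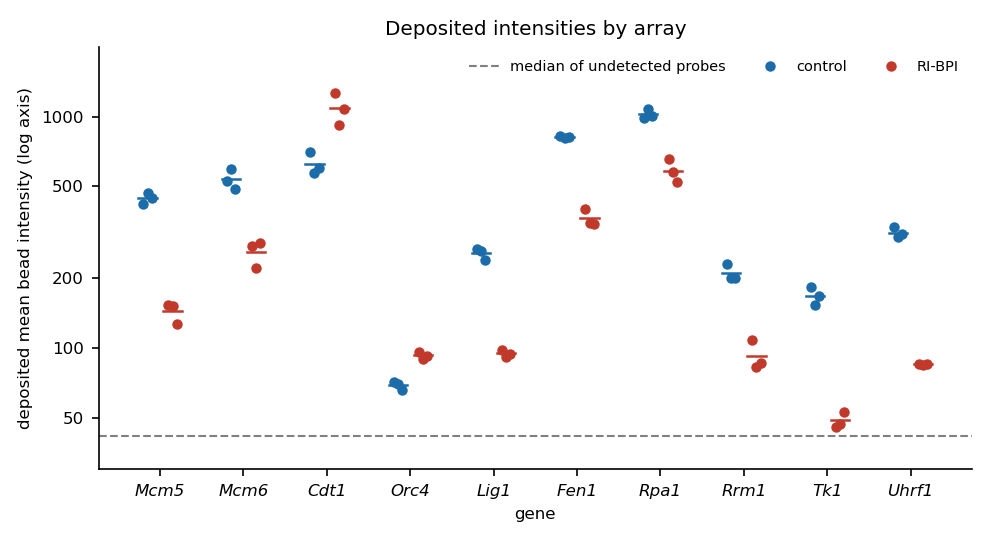
Deposited mean bead intensity on each array (log axis) for 10 replication genes, with control in blue, RI-BPI in red, horizontal bars at the group means, and a dashed line at the median of undetected probes. Cdt1 and Orc4 are higher on all 3 RI-BPI arrays, the other 8 are lower on all 3, and Tk1 reaches the level of undetected probes.

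All 4 factors among the 46 genes that fire the loaded helicase fell, with a median of -0.81. Of other genes with a part in firing, outside the 46, Cdc45 fell by 0.65 ± 0.13 and Recql4 rose by 1.33 ± 0.11. Dbf4 (0.23 ± 0.10) and Topbp1 (0.03 ± 0.12) were not called. Mcm10, which binds the active helicase and polymerase alpha, read 137, 143 and 147 on the control arrays and 76, 80.1 and 82.8 on the RI-BPI arrays, and the arrays of the peptides were separate. It fell by 1.03 ± 0.11 (adjusted p = 2.39e-07). A dimmer Mcm10 probe, undetected with RI-BPI, was at least 1.47-fold lower after background correction, on which that bound rests. Of the GINS subunits among the 46, Gins2 fell by 0.98 ± 0.11 and Gins1 fell by 0.65 ± 0.10, and the kinase Cdc7 fell by 0.54 ± 0.12. The GINS subunits outside the 46 differed. Gins4 fell by 0.30 ± 0.12 (adjusted p = 0.0352), and Gins3 was not called at 0.25 ± 0.12, with its RI-BPI arrays above its control arrays. Gins2 had 3 detected probes, of which the second gave -0.82 ± 0.11. The other, undetected with RI-BPI, had mean deposited intensities of 87.7 and 55.2 and was at least 1.95-fold lower after background correction, on which that figure rests.

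All 5 subunits of the clamp loader passed the test as lower, Rfc3 without a bound on its fold. The clamp, read by 1 dim probe alone, was not called. Rfc2, a small ATPase subunit, read 1235, 1252 and 1136 on the control arrays and 638, 704 and 686 on the RI-BPI arrays. The values of Rfc2 were separate on all arrays, and it fell by 0.86 ± 0.11 (adjusted p = 1.60e-06). Its 3 other probes gave -0.85 ± 0.12, -1.14 ± 0.18 and -1.32 ± 0.12, so the brightest probe gave a smaller decrease than 2 of them. The large subunit Rfc1 fell by 0.53 ± 0.11, Rfc5 fell by 0.74 ± 0.11 and Rfc4 fell by 0.70 ± 0.13, the last detected on 2 of 3 RI-BPI arrays. A dimmer probe of Rfc5, undetected with RI-BPI, was at least 1.09-fold lower (adjusted p = 0.0375), with overlapping groups. Rfc3 was detected on no RI-BPI array and read 55.1, 58.8 and 58.1 on the control arrays and 49.6, 48 and 42.4 on the RI-BPI arrays. Rfc3 was thus kept through its control arrays alone. It passed the test (adjusted p = 0.000752), but its control values were too near the detection limit for a bound on the fold. Pcna, the sliding clamp that tethers the polymerases, read 85.3, 79.4 and 89.5 on the control arrays and 75.7, 78.5 and 87.3 on the RI-BPI arrays. The groups overlapped, and its change of 0.03 ± 0.13 did not pass (adjusted p = 0.858) and had the opposite sign with median centring (-0.13).

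Both enzymes that join the lagging strand fell, with a median of -1.43. Lig1, the ligase that seals Okazaki fragments, read 267, 263 and 239.9 on the control arrays and 98.1, 91.9 and 94.7 on the RI-BPI arrays. None of the RI-BPI arrays came near the control arrays, and Lig1 fell by 1.66 ± 0.10 (3.17-fold lower, adjusted p = 7.49e-11), rank 72 from the bottom of all measured genes. Fen1, the nuclease that removes the primer flap, read 823, 807 and 818 on the control arrays and 400.5, 347 and 344 on the RI-BPI arrays. The groups were separate, and Fen1 was 2.3-fold lower (adjusted p = 9.31e-09), rank 254.

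Among the 46 genes, 6 of polymerases alpha, delta and epsilon and of primase were measured, and 5 fell. Of subunits outside the 46, Pole4 rose by 0.81 ± 0.11, and Pold4 (0.17 ± 0.13) and Pole3 (0.03 ± 0.11) were not called. Pold1, the catalytic subunit of polymerase delta, read 260.2, 302 and 227 on the control arrays and 136, 151 and 115 on the RI-BPI arrays, with separate groups, and fell by 1.06 ± 0.12 (adjusted p = 4.95e-07). Its partner Pold2 fell by 0.70 ± 0.11. Pold3, a further subunit of polymerase delta, overlapped between the peptides at 382, 484 and 456 on the control arrays and 460.0, 408 and 419 on the RI-BPI arrays, with a change of 0.02 ± 0.12 (adjusted p = 0.913). Pole, the catalytic subunit of polymerase epsilon, was detected on all control arrays and on no RI-BPI array, at 74.2, 72.2 and 74 on the control arrays and 49.3, 48.7 and 47.3 on the RI-BPI arrays. After background correction Pole was at least 1.5-fold lower (adjusted p = 7.11e-08), a bound that rests on that correction. Over the alternative ways of processing its log2 change ran from -1.11 to -0.49. The primase subunit Prim2 fell by 0.81 ± 0.11, with -0.58 ± 0.11 at its other probe, whereas Prim1 and the catalytic Pola1 were detected on no array. Pola2, the accessory subunit of polymerase alpha, fell by 0.26 ± 0.11 with an adjusted p of 0.0493. That call was lost under 10 of the 15 alternatives, among them without control replicate 1 (adjusted p = 0.153), control replicate 2 (0.175), RI-BPI replicate 1 (0.103) and RI-BPI replicate 2 (0.0872). Pole2 was detected on no array.

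Replication protein A, which coats single-stranded DNA, had 2 of 3 subunits lower. Rpa1, the large DNA-binding subunit, read 987, 1079 and 1007 on the control arrays and 657, 575 and 523 on the RI-BPI arrays, with separate groups. It fell by 0.82 ± 0.11 (adjusted p = 1.70e-06). Rpa3 fell by 0.39 ± 0.13 (adjusted p = 0.0147). Leaving out control replicate 3 (adjusted p = 0.113) or RI-BPI replicate 3 (0.0667), or using no detection filter (0.0895), ended that call. Rpa2 was dim and overlapped, at 77.2, 66.3 and 61.7 on the control arrays and 73.1, 69.4 and 58.1 on the RI-BPI arrays, with changes of 0.05 ± 0.15 (adjusted p = 0.799) and 0.10 ± 0.12 at its 2 detected probes. The sign of the first turned to -0.08 with median centring.

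**Figure D3:**
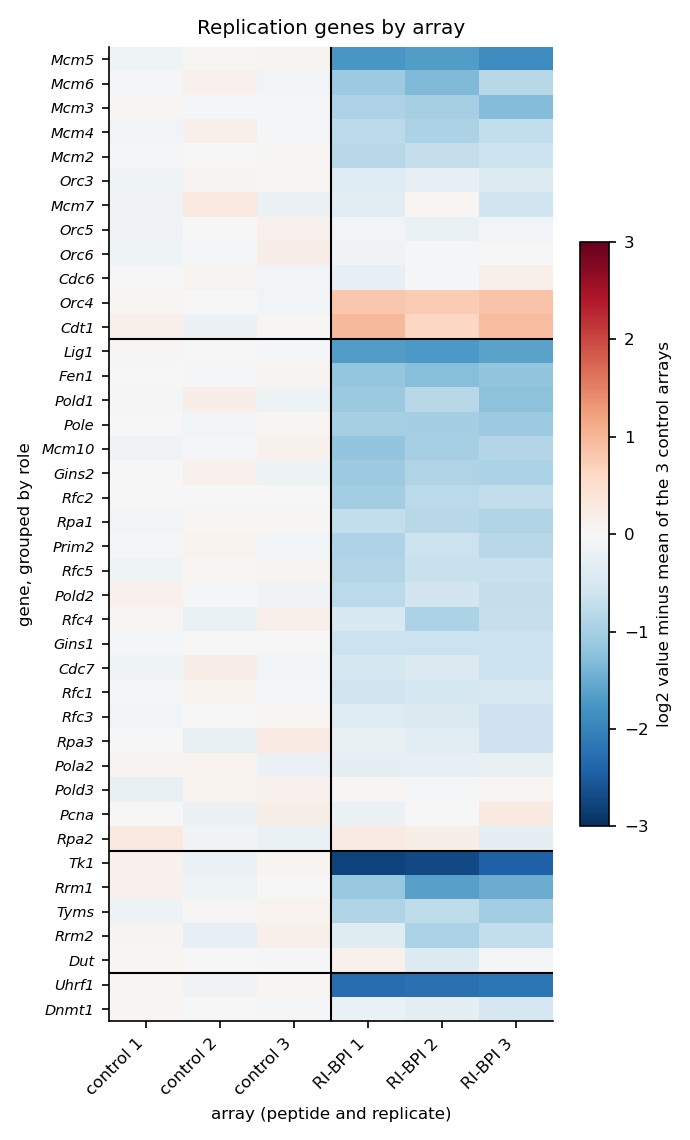
Log2 value of each measured replication gene on each of the 6 arrays, minus the mean of the 3 control arrays, with blue lower and red higher and black lines between roles and peptides. The 3 RI-BPI columns are blue for most genes, red for Orc4 and Cdt1, and near white for Cdc6, Orc6, Pold3 and Dut.

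Of the 5 genes of nucleotide supply 4 fell. Tk1, which salvages thymidine and is degraded when cells leave mitosis, read 183, 153 and 167 on the control arrays and 45.6, 47.1 and 53.2 on the RI-BPI arrays. It was detected on all control arrays and on no RI-BPI array, and passed the test (adjusted p = 1.12e-12), with group means on the normalized log2 scale of 7.06 ± 0.18 (SD, n = 3) under control peptide and 4.42 ± 0.19 (n = 3) under RI-BPI. Its change of -2.64 ± 0.12 in the fit was -1.51 in the authors' normalized table. After background correction the bound was at least 4.65-fold lower, a figure that rests on that correction, since the mean deposited intensities were 168 and 48.7. The array has 3 further Tk1 probes, of which 1 was detected on 1 control array and the others on none. Rrm1, the large subunit of ribonucleotide reductase, read 232, 200.4 and 201 on the control arrays and 109, 82.4 and 86.3 on the RI-BPI arrays, with separate groups. It fell by 1.42 ± 0.13 (2.67-fold lower, adjusted p = 1.25e-08), and its second detected probe gave -1.45 ± 0.12. The small subunit Rrm2 was dim, at 67.9, 60.6 and 68.9 on the control arrays and 56.3, 42.3 and 49.2 on the RI-BPI arrays, and detected on 1 of 3 RI-BPI arrays. It fell by 0.69 ± 0.14 (adjusted p = 0.000295), and its change was -0.33 in the authors' normalized table. Tyms, which makes dTMP from dUMP, read 131, 146 and 142 on the control arrays and 85.1, 87.2 and 75.5 on the RI-BPI arrays, with no overlap, and fell by 0.90 ± 0.11 (adjusted p = 1.27e-06). Dut, which keeps uracil out of DNA by hydrolysing dUTP, overlapped at 62.7, 62.7 and 60.3 on the control arrays and 63.4, 52.2 and 59 on the RI-BPI arrays and changed by -0.11 ± 0.13 (adjusted p = 0.472).

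Uhrf1 and Dnmt1 copy DNA methylation onto the new strand, Uhrf1 by binding hemimethylated sites and Dnmt1 by methylating them. Uhrf1 read 333, 302 and 309.8 on the control arrays and 85.6, 84.5 and 85.5 on the RI-BPI arrays. The 3 RI-BPI arrays were within 2 intensity units of each other and far below the controls, and Uhrf1 fell by 2.22 ± 0.11 (4.67-fold lower, adjusted p = 1.71e-12), rank 19 from the bottom. Its other probe was detected on no array. Dnmt1 read 446, 431 and 391 on the control arrays and 382, 346 and 280.3 on the RI-BPI arrays and fell by 0.32 ± 0.11 (adjusted p = 0.0169). The decrease of Dnmt1 was not called without control replicate 1 (adjusted p = 0.0638) or without RI-BPI replicate 3 (0.0778).

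Agreement between probes could be read for the 10 genes with more than 1 kept probe. All 14 further probes of these genes changed in the same direction as the brightest one. Both probes of Orc5 and of Rpa2 lay near 0, and the widest spread within a gene was in Rfc2, from -0.85 to -1.32. Across the 40 measured genes the log2 change had a Pearson correlation of -0.23 and a Spearman correlation of -0.35 with the mean log2 value on the control arrays. These are correlations over genes that share the same 6 arrays.

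**Figure D4:**
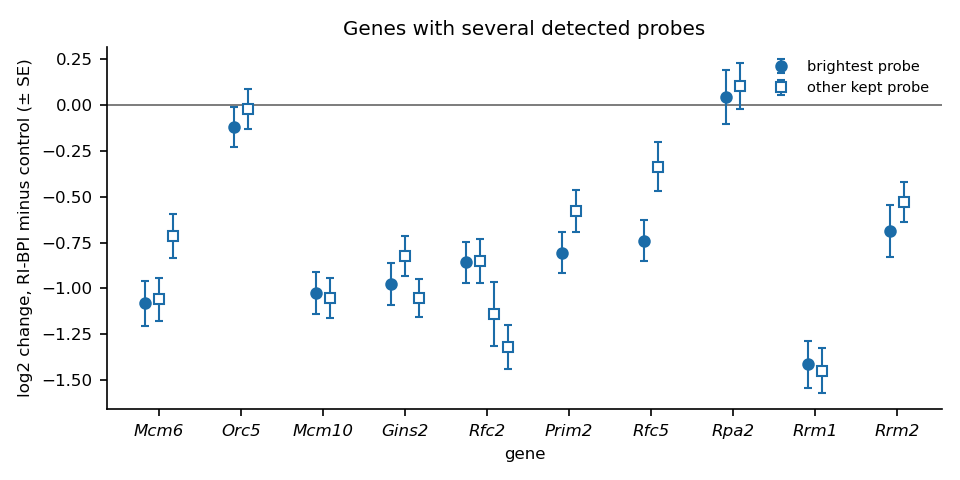
Log2 change ± SE (RI-BPI minus control) at each kept probe of the 10 genes with several, with the brightest probe as a filled circle and the others as open squares. Every further probe lies on the same side of 0 as the brightest.

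Of 31 further replication fork genes 25 were measured, with 11 lower (44.0%), 2 higher (8.0%), 12 not called and a median log2 change of -0.12. Over all measured genes 30.6% fell and 30.7% rose. The fork protection protein Timeless read 124, 148 and 119 on the control arrays and 65.9, 54.7 and 55.5 on the RI-BPI arrays. The checkpoint mediator Clspn read 105, 115 and 98.7 on the control arrays and 50.8, 52.9 and 61.5 on the RI-BPI arrays. Both had separate groups and were detected on 1 of 3 RI-BPI arrays, and Timeless fell by 1.67 ± 0.13 (adjusted p = 2.58e-09) and Clspn fell by 1.45 ± 0.14 (adjusted p = 2.73e-08). The helicase Recql4, detected on 2 of 3 control arrays, rose by 1.33 ± 0.11, and Pole4, a histone-fold subunit of polymerase epsilon, rose by 0.81 ± 0.11.

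Among 37 further genes of nucleotide synthesis 31 were measured, with 12 lower (38.7%), 7 higher (22.6%), 12 not called and a median of -0.15. Both shares lie near those of all measured genes, 30.6% and 30.7%. The salvage kinase Dck fell by 1.44 ± 0.13 (adjusted p = 1.50e-08). Samhd1, which degrades deoxynucleotides, fell by 1.18 ± 0.14, with -1.42 ± 0.11 and -0.29 ± 0.12 at other probes. Shmt2 and Mthfd2, folate enzymes of mitochondria, rose. Shmt2 read 80.2, 80.1 and 75.8 on the control arrays and 148, 146 and 145 on the RI-BPI arrays, with separate groups, and rose by 1.36 ± 0.10 (adjusted p = 1.61e-09). Mthfd2 rose by 0.47 ± 0.11, and its other probe gave 0.30 ± 0.14, which did not pass (adjusted p = 0.0809). The 7 increases became 3 with median centring and 4 without control replicate 1.

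Of 15 E2F and pocket protein genes 11 were measured, with 5 lower (45.5%), 2 higher (18.2%), 4 not called and a median of -0.06, where 61.3% of all measured genes were called in either direction, 30.6% lower and 30.7% higher. Rbl1, which encodes the pocket protein p107, fell by 1.25 ± 0.13 (adjusted p = 6.38e-08) and the activator E2f2 fell by 0.97 ± 0.11 (adjusted p = 3.92e-07). E2f1, named after its value was seen, fell by 0.84 ± 0.11. Lin54, a DNA-binding subunit of the DREAM and MuvB complexes, rose by 1.01 ± 0.13, and E2f3 rose by 0.55 ± 0.11, with 0.03 ± 0.14 at a dimmer probe, so its direction rests on 1 probe. Of 8 cyclin, kinase and related genes of S phase entry 2 were measured, and Cdk2 fell by 0.28 ± 0.11 (adjusted p = 0.0307) while Cdc25a was not called at -0.20 ± 0.12. Of 3 further Cdk2 probes, 1 passed (-0.35 ± 0.11, adjusted p = 0.00951) and 2 did not (-0.24 ± 0.12, adjusted p = 0.0791, and -0.23 ± 0.12, adjusted p = 0.0962).

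**Figure D5:**
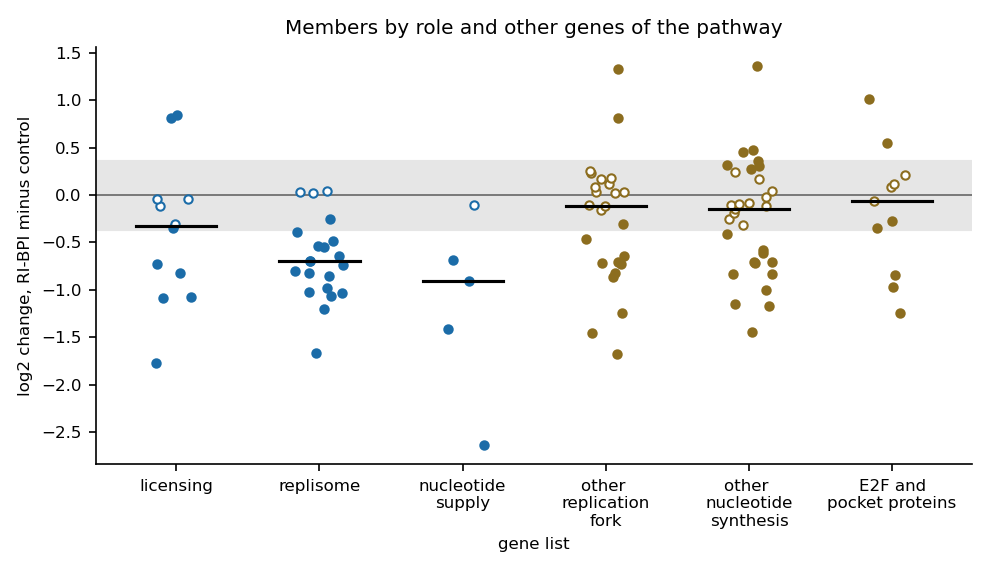
Log2 change (RI-BPI minus control) of the measured licensing, replisome and nucleotide supply genes in blue and of 3 lists of other pathway genes in brown, 1 point per gene, filled where the test was passed, with a black bar at the median and a grey band for the middle 50% of all measured genes. The medians run from -0.90 for nucleotide supply and -0.70 for the replisome to -0.06 for E2F and pocket proteins.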

How the data were processed

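Per the file headers, the deposited values are mean bead intensities that are not normalized, given for every probe on each array with a detection p-value, the bead standard error and the number of beads (other values, median 45 per probe). The submitters' processing notes name GenomeStudio, with no version. A second deposited table of normalized intensity by a method not given in the sources used here served as an alternative.

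Background was corrected with limma 3.58.1 (R 4.3.3) by normexp, inferred from the detection p-values, adding an offset of 16. Values were then quantile normalized and put on the log2 scale. Probes with a detection p under 0.01 on at least 3 of 6 arrays were kept (13975), and the brightest kept probe stood for a gene (8205 genes). Of 45281 probes, 34885 had 1 symbol, 18 several and 10378 none, and 34807 matched a RefSeq gene of GRCm38.p6, which changed 0 symbols. RI-BPI was compared with control by lmFit and eBayes with 4 residual degrees of freedom, two-sided, adjusted over 8205 genes, or over the 13975 kept probes for further probes. The fit was tested on simulated data. Where a group was undetected on all 3 arrays, the fold is a bound: the undetected probe was set, on each such array, to the lowest detected value or to its own where that was higher, and these log2 values were averaged. All such bounds rest on the background correction. Intensities printed per array are the deposited ones, and levels are not compared between probes. The number of arrays limits the precision, and the SE of the log2 changes was 0.10 to 0.15.

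The genes, roles and lists were chosen with earlier results of these data known. All 46 genes may be named. From each list of other genes the 2 largest called decreases and increases are named. Pold4, Pole3, Gins3, Gins4, Cdc45, Dbf4 and Topbp1 are named beside related genes, after their values were seen. Promoters are shown for the leading genes of each role and those that moved against it. Fen1, Rrm1 and Orc4, whose windows held no E2F word, are not printed. The replicate numbers, which the labels give, were not used as a block because the labels call the arrays technical replicates. Deviations of same-numbered arrays correlated at 0.02, 0.002 and 0.03.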

Additional observations from a re-analysis of the deposited data

How the results depend on the processing

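Over 15 alternatives the number of replication genes called lower was 25 to 31 against 30, with 2 higher each time, and the count over all genes was 4520 to 5136 against 5031. Without 1 array the counts were 28 to 30 lower, and 4520 to 4960 over all genes. Of 32 called genes 29 kept direction and call under every alternative in which they were measured, the exceptions being Pola2, Rpa3 and Dnmt1. Rfc3, Rfc4, Pole, Rrm2 and Tk1 were not measured where detection on all 6 arrays was required. With no background correction, an offset of 50 or the authors' table the medians shrank. In that order, licensing went to -0.21, -0.20 and -0.18, and the replisome to -0.53, -0.49 and -0.45. Nucleotide supply went to -0.66, -0.63 and -0.58, and methylation maintenance to -1.05, -1.02 and -0.96. Median centring moved the median of all genes to -0.08 and gave -0.48, -0.83, -1.06 and -1.36. No detection filter gave -0.12 for the 15 licensing genes, and detection on all 6 arrays -1.16 for 2 nucleotide supply genes, because other genes enter or leave. Without 1 array the medians ran from -0.44 to -0.23 for licensing, -0.76 to -0.67 for the replisome, -0.97 to -0.83 for nucleotide supply and -1.30 to -1.24 for methylation maintenance. Signs reversed in uncalled genes alone: with median centring Pcna was -0.13, Pold3 -0.038 and Rpa2 -0.078. Leaving out 1 array at a time, Orc6 ran from -0.11 to 0.055, Cdc6 from -0.14 to 0.058, Pcna from -0.090 to 0.13, Pold3 from -0.10 to 0.083, Rpa2 from -0.055 to 0.22 and Dut from -0.22 to 0.046. The cause was not tested. With the replicate number as a block, 30 replication genes were lower, Pola2 was not called (adjusted p = 0.0567) and Mcm7 was (0.0237). Deviations of same-numbered arrays correlated at 0.02, 0.002 and 0.03, and for 2 of 3 numbers each array correlated best with its own number. These values do not settle whether the numbers pair the arrays. Signals near the level of undetected probes, as for Cdc6, Rpa2 and Dut, limit what can be resolved. Variation between cultures or mice was not estimated.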
